A study of Mus musculus with 10 samples.

Results

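The 9 genes described here take up, export, store or sense iron in the epithelium of the small intestine: Slc11a2, Cybrd1, Slc40a1, Heph, Tfrc, Fth1, Ftl1, Epas1 and Hmox1. They were taken by name from the 54838 genes in the files, and all 9 were found and passed the filter on low counts. Their mRNA was compared between the jejunal crypts of 5 WT mice and of 5 Arid3a cKO mice, with 1 library per animal of polyadenylated RNA. The villi had been scraped away before crypts were collected. The cKO mice carried VillinCre-ERT2 and floxed alleles of Arid3a (VillinCre-ERT2; Arid3a fl/fl), so that tamoxifen deletes the gene in epithelial cells that express Villin and not in other cells. Animals of both genotypes were given tamoxifen for 3 days and were killed 1 month after the first dose. The sources used here give neither the age of these mice nor the alleles that the WT animals carried. The question put to the data was how the iron genes of the crypt differ when Arid3a is absent from the epithelium.

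Dietary iron enters the absorptive enterocyte after a reductase at the brush border, encoded by Cybrd1, has turned ferric into ferrous iron, which the transporter DMT1 (Slc11a2) then carries across the membrane. Iron inside the cell is either stored in ferritin, a shell of heavy (Fth1) and light (Ftl1) chains, or leaves through ferroportin (Slc40a1) at the basolateral membrane, where hephaestin (Heph) oxidizes it for loading onto transferrin. The transferrin receptor (Tfrc) brings transferrin iron into dividing cells, heme oxygenase-1 (Hmox1) frees iron from heme, and HIF-2α (Epas1) is the transcription factor that raises transcription of several of these genes in the enterocyte when iron or oxygen is short. Iron regulatory proteins bind hairpins called iron-responsive elements in some of the mRNAs, which blocks translation when the hairpin is in the 5′ UTR and stabilizes the mRNA when hairpins are in the 3′ UTR.

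These hairpins are printed because they divide the 9 genes by a known feature of some iron mRNAs. Each was read 5′ to 3′ on the strand of the gene from the GENCODE M21 transcripts of GRCm38. The search asked for an unpaired C, 5 base pairs, a loop of CAGTGN, the 5 pairing bases, and at least 3 pairs among the 5 bases on either side below the C, with 1 unpaired base allowed on the 3′ side of the upper stem. The loop is in capitals:
Fth1, 5′ UTR, chr19:9982733-9982759, plus strand: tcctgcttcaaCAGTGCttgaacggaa
Ftl1, 5′ UTR, chr7:45459780-45459806, minus strand: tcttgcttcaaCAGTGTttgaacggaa
Slc40a1, 5′ UTR, chr1:45925466-45925492, minus strand: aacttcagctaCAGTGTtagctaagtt
Epas1, 5′ UTR, chr17:86753769-86753796, plus strand: acaatcctcggCAGTGTcctgagactgt
Slc11a2, 3′ UTR, chr15:100395153-100395180, minus strand: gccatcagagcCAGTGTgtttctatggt
Tfrc, 3′ UTR, chr16:32631220-32631246, plus strand: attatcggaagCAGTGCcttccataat
Tfrc, 3′ UTR, chr16:32631599-32631625, plus strand: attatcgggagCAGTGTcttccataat
Tfrc, 3′ UTR, chr16:32631664-32631690, plus strand: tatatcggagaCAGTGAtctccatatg
Tfrc, 3′ UTR, chr16:32631711-32631737, plus strand: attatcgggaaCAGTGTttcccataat

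Such a hairpin was found in the 5′ UTR of 4 of the 9 genes and in the 3′ UTR of another pair, and none was found in Cybrd1, Heph or Hmox1. Among all tested genes with an annotated 5′ UTR, 21 of 12948 (0.162%) held a match, and among those with a 3′ UTR 96 of 12996 (0.739%) did. The 9 genes were chosen as iron genes and the search was built to find this element, so these shares are no test of the 9 genes. The match lay in 1 of 7 coding transcripts of Slc11a2, 1 of 4 of Slc40a1, 1 of 3 of Tfrc, 2 of 3 of Ftl1, 4 of 5 of Fth1 and the only coding transcript of Epas1. The files give 1 value per gene, so transcripts with and without the hairpin were measured together. A match is a description of letters and pairing, not evidence of binding.

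Expected counts totalled 27050455 to 28152743 per WT library and 28314069 to 31053622 per cKO library. Arid3a itself had 55 to 81 counts in WT and 9 to 31 in cKO libraries (log2 fold change −1.84, SE 0.32, edgeR's adjusted p = 0.00204). All 13 markers of enterocyte maturation were higher in cKO libraries, by 0.80 to 2.06 on the log2 scale, and their summed level was 1845 to 8350 in WT and 8417 to 16374 in cKO libraries, in TPM (transcript abundance scaled for length and depth). WT replicates 3 and 4 had the lowest sums, at 2662 and 1845 TPM, and were left out together in an alternative fit. Of 10 markers of stem cells and crypt proliferation, 7 were lower in cKO libraries and 0 higher (0 higher also at an unadjusted p below 0.05, with DESeq2 and with limma-voom), and their summed level was 2908 to 4968 TPM in WT against 2108 to 3166 TPM in cKO libraries. The part of these shifts in cell composition in any difference of an iron gene was not tested, and in bulk RNA more cells of a type cannot be told apart from more RNA per cell.

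**Figure D1:**
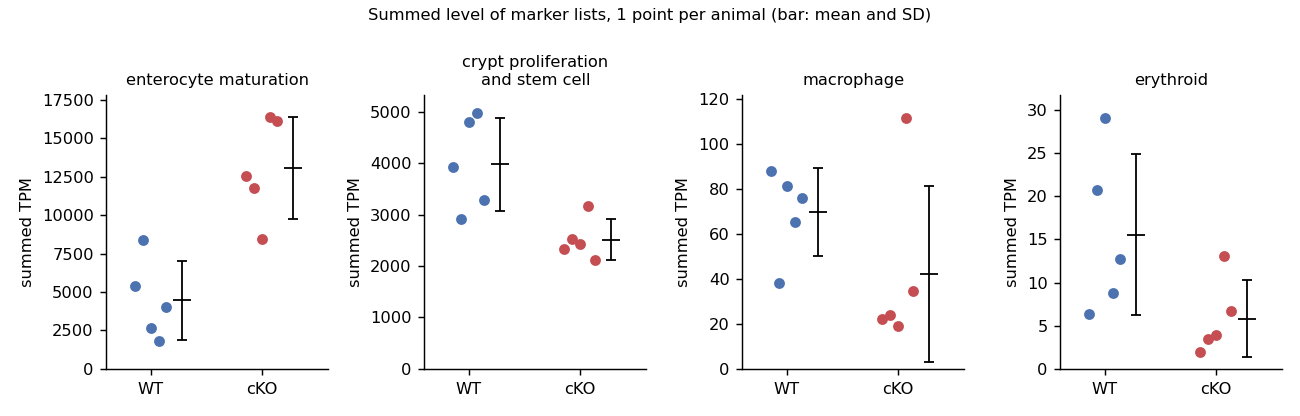
Summed TPM of 4 marker lists (y axis, linear) in each of 5 WT and 5 cKO libraries, 1 point per animal, with the mean and SD as bars. The enterocyte sums of the cKO libraries all lie above those of the WT libraries, from 8417 TPM upwards, while 1 cKO library (replicate 4) has the highest macrophage sum, at 111 TPM.

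Of the 9 iron genes, 6 were higher in cKO crypts and 0 were lower when 14719 genes were tested with edgeR's quasi-likelihood method and p-values were adjusted after Benjamini and Hochberg (threshold 0.05). Over all genes tested, 15.6% were higher and 12.7% lower. The count of 0 lower held at an unadjusted p below 0.05, with DESeq2 and with limma-voom. The count of 6 higher was the same with DESeq2 and limma-voom. It was 4 by limma on log2(TPM + 1) and without WT replicates 3 and 4. The median log2 fold change of the 9 genes was 0.62 and that of all genes was −0.03. In CPM, the normalised read count on TMM-normalised library sizes, every cKO library lay above every WT library for 5 of the 9 genes, against 12.0% of all genes. In TPM, which divides by transcript length and was not TMM-scaled, this held for 3 of the 9 genes, against 6.43% of all genes. The genes that changed were the transporter pair that moves iron through the cell, the oxidase that works with the exporter, both ferritin chains and HIF-2α. Values for the reductase, the transferrin receptor and heme oxygenase-1 did not pass the threshold.

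**Figure D2:**
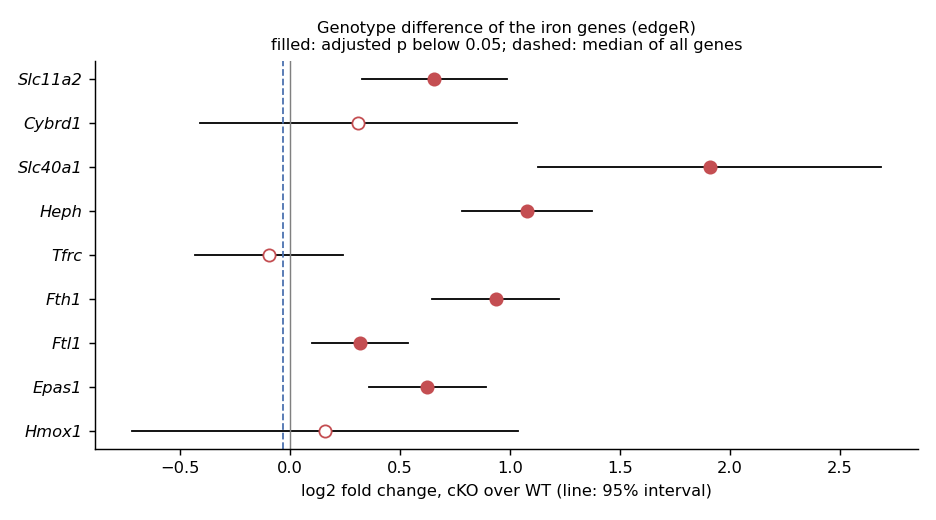
Log2 fold change of the 9 iron genes, cKO over WT (x axis), from edgeR, with 95% intervals as lines, filled points where the adjusted p is below 0.05, and a dashed line at the median of all genes (−0.03). Slc40a1 has the highest value (1.91), and the intervals of Cybrd1, Tfrc and Hmox1 include 0.

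Slc11a2 (ENSMUSG00000023030, chr15:100387898-100425072, minus strand) encodes DMT1, the proton-coupled importer of ferrous iron at the brush border and in endosomes. Its level was 45.8, 49.1, 43.8, 45.6 and 42.9 CPM in WT replicates 1 to 5 and 98.3, 65.0, 84.2, 57.5 and 52.9 CPM in cKO replicates 1 to 5. Every cKO library was above every WT library, the WT libraries lay close together, and cKO replicates 1 and 3 were the highest. This was a log2 fold change of 0.66 (SE 0.15), a 1.58-fold difference with a 95% interval of 1.25 to 1.98 (edgeR's adjusted p = 0.00897). In TPM, which is per length and without TMM scaling, the groups overlapped, at 28.1, 24.2, 22.3, 27.1 and 18.1 TPM in WT and 45.0, 25.6, 33.5, 29.0 and 24.8 TPM in cKO libraries. The mean difference of 0.37 in log2(TPM + 1) gave a two-sided exact permutation p of 0.0873. With effective length as an offset and TMM scaling kept, the log2 fold change was 0.50 (edgeR's adjusted p = 0.0307).

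The mean length of the Slc11a2 transcripts to which RSEM assigned reads was 2580 ± 238 bases (SD, n = 5) in WT and 2833 ± 225 bases in cKO libraries. It ranged from 2272 to 2895 bases among WT and from 2609 to 3086 bases among cKO libraries, so the groups overlapped, and the exact permutation p was 0.127. Of the 7 iron genes whose assigned length varied, 0 had groups that did not overlap, against 3.79% of 11860 genes of varying length. The call for Slc11a2 was lost on the TPM scale (limma on log2(TPM + 1), adjusted p = 0.111), with 1 surrogate variable from sva, an estimate of variation not due to genotype (log2 fold change 0.56, adjusted p = 0.104) and without WT replicates 3 and 4 together (0.64, adjusted p = 0.0629), and kept without any single animal (0.52 to 0.75).

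Slc40a1 (ENSMUSG00000025993, chr1:45908068-45926523, minus strand) encodes ferroportin, the known exporter of iron from cells and the target of hepcidin. It stood at 34.4, 33.1, 41.5, 26.5 and 40.1 CPM in WT replicates 1 to 5 and at 188, 89.5, 201, 126 and 53.4 CPM in cKO replicates 1 to 5. The groups did not overlap, and the cKO animals differed widely among themselves, with replicates 1 and 3 high and replicate 5 low. The log2 fold change of 1.91 (SE 0.35) corresponded to a 3.75-fold difference with a 95% interval of 2.18 to 6.44 (edgeR's adjusted p = 0.00492), the highest value among the 9 genes.

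In TPM the ferroportin mRNA was 16.4, 13.2, 20.2, 12.3 and 16.9 in WT and 79.8, 35.3, 80.4, 54.2 and 22.6 in cKO libraries (exact permutation p = 0.00794, the smallest that 5 against 5 animals can give). The coefficient of variation was 20.0% in WT and 47.6% in cKO animals. The enterocyte sums of cKO replicates 1 to 5 were 12568, 11763, 8417, 16374 and 16097 TPM, and their part in the Slc40a1 difference was not tested. Macrophages, which recycle iron from red cells, also express ferroportin. The summed level of 12 macrophage markers was 38.2 to 87.8 TPM in WT and 18.8 to 111 TPM in cKO libraries, 4 of the 11 tested were lower in cKO libraries and 0 higher (0 higher also at an unadjusted p below 0.05, with DESeq2 and with limma-voom), and the sums of cKO replicates 1 to 5 were 22.4, 23.8, 18.8, 111 and 34.7 TPM. Their part in the Slc40a1 difference was not tested.

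Heph (ENSMUSG00000031209, chrX:96455359-96574485, plus strand) encodes hephaestin, a membrane-bound copper oxidase related to ceruloplasmin. Its level was 82.2, 86.5, 65.6, 54.0 and 63.8 CPM in WT and 164, 124, 132, 173 and 151 CPM in cKO replicates 1 to 5. Every cKO library exceeded every WT library, with the WT libraries of replicates 1 and 2 nearest to them. Hephaestin mRNA thus had a log2 fold change of 1.08 (SE 0.14), a 2.11-fold difference with a 95% interval of 1.72 to 2.59 (edgeR's adjusted p = 0.000702), and in TPM the means were 20.1 ± 3.73 (SD, n = 5) and 39.8 ± 7.00.

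Cybrd1 (ENSMUSG00000027015, chr2:71117923-71142926, plus strand) encodes the ferric reductase DCYTB of the duodenal brush border. It was low in these crypts, at 1.25, 1.16, 1.96, 2.44 and 1.42 TPM in WT and 1.70, 1.34, 2.04, 3.66 and 0.87 TPM in cKO replicates 1 to 5. The groups overlapped over most of their range, with the highest and the lowest value both in cKO animals. The log2 fold change was 0.31 (SE 0.33, edgeR's adjusted p = 0.503), and its 95% interval allowed from 0.75-fold to 2.04-fold. The value was −0.02 without cKO replicate 4, 0.62 without WT replicates 3 and 4, and 0.87 with 1 surrogate variable (adjusted p = 0.0683). The library of cKO replicate 4 had the highest sums of macrophage, of fibroblast and muscle, and of enterocyte maturation markers (111, 51.8 and 16374 TPM). Among cKO libraries it also had the highest sum of stem cell and crypt proliferation markers (3166 TPM). The part of these cell types in the Cybrd1 value was not tested.

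**Figure D3:**
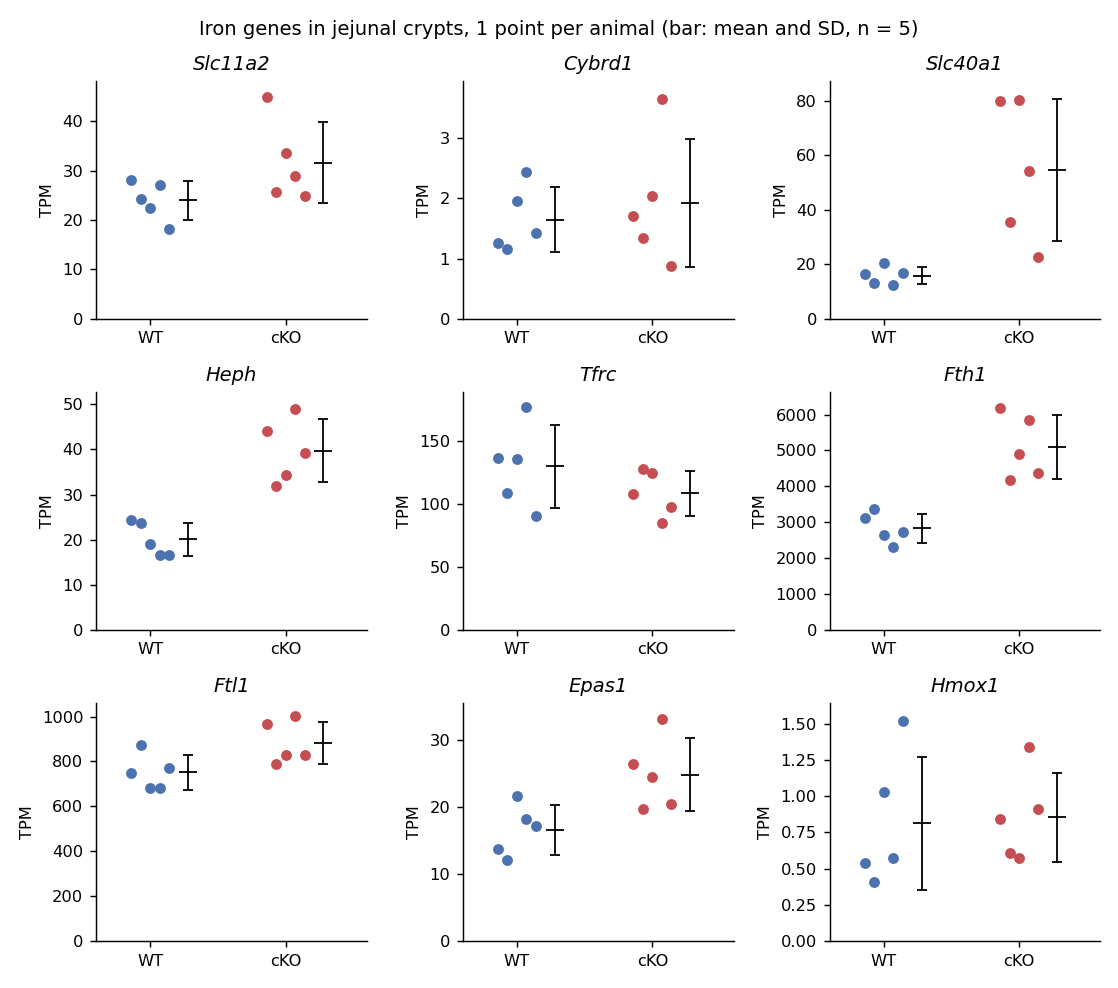
TPM of the 9 iron genes (y axes, linear, from 0, a scale of its own in each panel) in 5 WT and 5 cKO libraries, 1 point per animal, with the mean and SD as bars. The groups are apart for Slc40a1, Heph and Fth1 and overlap for the other 6 genes.

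Fth1 (ENSMUSG00000024661, chr19:9980598-9985098, plus strand) encodes the ferritin heavy chain, which carries the ferroxidase activity of the shell. Its level was 1789, 2065, 1541, 1281 and 1765 CPM in WT and 3885, 2744, 3165, 3495 and 2842 CPM in cKO replicates 1 to 5. The lowest cKO library lay well above the highest WT library. The log2 fold change was 0.93 (SE 0.13), a 1.91-fold difference with a 95% interval of 1.56 to 2.34 (edgeR's adjusted p = 0.000981), and Fth1 was the most abundant of the 9 mRNAs, at 2827 ± 409 TPM (SD, n = 5) in WT and 5093 ± 893 TPM in cKO libraries.

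Ftl1 (ENSMUSG00000050708, chr7:45457944-45459884, minus strand) encodes the light chain, which has no ferroxidase centre and helps the iron core to form. It stood at 485, 606, 451, 427 and 567 CPM in WT and 686, 587, 603, 676 and 610 CPM in cKO replicates 1 to 5. The groups overlapped, because WT replicate 2 was higher than the cKO libraries of replicates 2 and 3. The difference between the means was 0.32 on the log2 scale (SE 0.10), a 1.25-fold difference with a 95% interval of 1.07 to 1.45 (edgeR's adjusted p = 0.0332). The call was lost when any of WT replicates 1, 3 and 4 and cKO replicates 1, 4 and 5 was left out (values of 0.26 to 0.33), on the TPM scale (exact permutation p = 0.0556 on log2(TPM + 1)) and with 1 surrogate variable (0.19, adjusted p = 0.289).

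The heavy and light chains did not differ by the same amount. The ratio of Fth1 to Ftl1 TPM was 4.17, 3.85, 3.86, 3.39 and 3.51 in WT and 6.40, 5.29, 5.94, 5.85 and 5.27 in cKO replicates 1 to 5. Every cKO animal had a higher ratio than every WT animal. The mean difference in the log2 ratio was 0.61 (exact permutation p = 0.00794). Both chains together made up 3579 ± 477 TPM (SD, n = 5) in WT and 5974 ± 983 TPM in cKO libraries, with no overlap (difference of 0.73 in log2, exact permutation p = 0.00794). Most of this sum was Fth1, at 2827 TPM in WT and 5093 TPM in cKO libraries, so it largely repeats the Fth1 result. Reads of Ftl1 can be shared with near-identical copies, of which the reference holds 5, led by Ftl1-ps1 (99.6% identical, at most 356 counts), beside 7 short RNA genes that match part of it and had no count. Together they held 1.71% to 2.26% of the Ftl1 count, adding them left the log2 ratio difference at 0.62, and no copy of Fth1 was found at 95% identity.

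**Figure D4:**
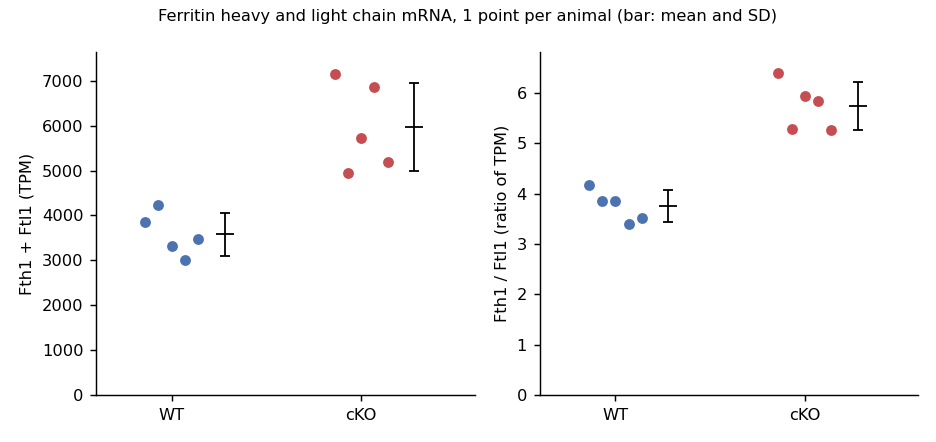
Sum (left, TPM) and ratio (right) of Fth1 and Ftl1 in 5 WT and 5 cKO libraries, 1 point per animal, with the mean and SD as bars and y axes from 0. The cKO libraries lie above all WT libraries in both panels, with ratios from 5.27 to 6.40 against 3.39 to 4.17.

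Tfrc (ENSMUSG00000022797, chr16:32608920-32632794, plus strand) encodes the transferrin receptor, which is high in dividing cells and carries the hairpins in its 3′ UTR. Its level was 446, 391, 460, 523 and 313 CPM in WT and 399, 473, 469, 292 and 364 CPM in cKO replicates 1 to 5. The groups overlapped throughout. Its log2 fold change was −0.09 (SE 0.15, edgeR's adjusted p = 0.672) with a 95% interval of 0.74-fold to 1.18-fold, so a 2.11-fold difference like that of Heph lay outside it. In TPM the means were 130 ± 32.7 (SD, n = 5) in WT and 109 ± 17.9 in cKO libraries (exact permutation p = 0.254). Without cKO replicate 4 the log2 fold change was 0.0003 and without WT replicates 3 and 4 it was 0.06.

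Epas1 (ENSMUSG00000024140, chr17:86753700-86833410, plus strand) encodes HIF-2α. It stood at 54.3, 52.2, 75.0, 62.9 and 69.0 CPM in WT and 104, 80.2, 86.6, 119 and 93.7 CPM in cKO replicates 1 to 5. All cKO libraries were above all WT libraries, with cKO replicate 2 close to WT replicate 3. Its log2 fold change was 0.62 (SE 0.12), a 1.54-fold difference with a 95% interval of 1.28 to 1.85 (edgeR's adjusted p = 0.00414). In TPM the groups overlapped by a small margin (12.0 to 21.6 TPM in WT, 19.6 to 33.0 TPM in cKO libraries, exact permutation p = 0.0238 on log2(TPM + 1)). With effective length as an offset and TMM scaling kept, the log2 fold change was 0.67 (edgeR's adjusted p = 0.0108). Endothelial cells also express Epas1: 9 endothelial markers summed to 1.59 to 3.46 TPM in WT and 0.68 to 1.35 TPM in cKO libraries, and 2 of the 3 that could be tested, Pecam1 and Plvap, were lower in cKO libraries. The part of this shift in the Epas1 value was not tested.

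Hmox1 (ENSMUSG00000005413, chr8:75093621-75100589, plus strand) encodes the inducible heme oxygenase. It was at the lower limit of what these libraries measure, with 11 to 52 counts per library, or 0.54, 0.41, 1.03, 0.57 and 1.52 TPM in WT and 0.84, 0.61, 0.57, 1.34 and 0.91 TPM in cKO replicates 1 to 5. The groups overlapped throughout, with the highest and the lowest value both in WT animals. The log2 fold change of 0.16 (SE 0.40, edgeR's adjusted p = 0.791) had a 95% interval of 0.61-fold to 2.05-fold, so a difference of the size seen for Fth1 was not excluded at this depth. Its sign turned without WT replicate 2 (−0.04) or cKO replicate 4 (−0.02), and it was 0.61 without WT replicate 5 and 0.62 with 1 surrogate variable (adjusted p = 0.470).

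In order of TPM, WT crypts held Fth1, Ftl1, Tfrc, Slc11a2, Heph, Epas1, Slc40a1, Cybrd1 and Hmox1, from 2827 down to 0.81 TPM. The libraries of neighbours in this order overlapped from Slc11a2 to Slc40a1 (24.0, 20.1, 16.5 and 15.8 TPM on average) and between Cybrd1 and Hmox1, and were apart elsewhere. In cKO crypts Slc40a1 stood in the fourth place, at 54.5 ± 25.9 TPM (SD, n = 5), followed by Heph (39.8 TPM), Slc11a2 (31.6 TPM) and Epas1 (24.8 TPM), and these neighbours overlapped too. The first 3 and the last 2 places were the same in both genotypes.

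Set beside the hairpins, the 4 genes with a match in the 5′ UTR had log2 fold changes of 0.93 (Fth1), 0.32 (Ftl1), 1.91 (Slc40a1) and 0.62 (Epas1). The genes with a match in the 3′ UTR had 0.66 (Slc11a2) and −0.09 (Tfrc), and Heph, with no match, had 1.08. Of the 17 other tested genes with a 5′ match, among them the Ftl1 copy Ftl1-ps1, 3 were higher, 1 was lower and the median log2 fold change was −0.0041. Of the 94 other tested genes with a 3′ match, 16 were higher, 7 were lower and the median was 0.01. The shares over all genes tested were 15.6% higher and 12.7% lower.

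Further genes of iron handling were read from 6 lists with 94 genes, of which 83 could be tested. Of these, 18 (21.7%) were higher and 5 (6.02%) lower in cKO crypts, around a median of 0.05 (log2 fold change), against 15.6% and 12.7% of all genes. This split depended on the scale, since 8 were higher and 13 lower by limma on log2(TPM + 1), and 10 were higher and 19 lower with library size as the only scaling. Over all genes the higher and lower counts moved in the same way, from 2298 and 1869 to 1420 and 2733 by limma on log2(TPM + 1). By that measure the counts of higher and lower genes were 4 and 5 among other carriers and reductases, 1 and 1 in the list of iron regulatory proteins, 0 and 3 in heme synthesis and breakdown, 0 and 3 in iron-sulfur cluster assembly, and 3 and 0 in the HIF axis.

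Among 18 other carriers and reductases, 6 were higher and 2 lower (median 0.08), against 15.6% and 12.7% of all genes. Abcg2, which exports porphyrins and urate, went from 42.3 to 60.0 TPM on average (log2 fold change 0.57, edgeR's adjusted p = 0.00185), Sfxn1, a mitochondrial serine carrier, from 78.6 to 100.1 TPM (0.44, adjusted p = 0.00205), and Slc39a14, an importer of zinc, manganese and iron, from 34.3 to 42.3 TPM (0.43, adjusted p = 0.00296). Of the STEAP family, Steap1 and Steap3 were lower, at −0.54 and −0.35 (adjusted p = 0.0165 and 0.0199). Slc25a28, which serves mitochondrial iron import, did not pass (−0.08). Chosen after their values were seen, the folate and heme carrier Slc46a1 (19.4 to 70.2 TPM, log2 fold change 1.96, adjusted p = 0.00463) and the exporter Flvcr1 (5.48 to 14.3 TPM, 1.43, adjusted p = 0.00444) had the highest values of this list, and both were without overlap between the groups in CPM.

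Of 11 genes for iron regulatory proteins, ferritin handling and iron chaperones, 8 could be tested, 4 were higher and 0 lower (median 0.28; 1 lower at an unadjusted p below 0.05, 1 lower with DESeq2 and 0 with limma-voom). Among all genes tested, 15.6% were higher and 12.7% lower. Ncoa4, the receptor that delivers ferritin to the lysosome, rose from 48.7 to 101 TPM on average (log2 fold change 1.19, SE 0.14, edgeR's adjusted p = 0.000587), with no overlap between the groups. The iron regulatory proteins Ireb2 (0.42, adjusted p = 0.00566) and Aco1 (0.36, adjusted p = 0.0123) and the iron-sensing ubiquitin ligase subunit Fbxl5 (0.26, adjusted p = 0.0264) rose by less. The chaperones Pcbp1 and Pcbp2, which deliver iron to ferritin, had −0.20 and −0.05 and did not pass, and Ftmt, the mitochondrial ferritin, had no count in any library.

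None of the 6 tested genes among 12 of the transferrin cycle and the hepcidin axis passed the threshold in either direction with edgeR, DESeq2 or limma-voom, and 1, Trf, was lower at an unadjusted p below 0.05 (6.60 to 3.54 TPM, log2 fold change −0.72), as was 1 by limma on log2(TPM + 1). Neo1, a hemojuvelin receptor, was the most abundant of them, at 23.3 and 21.4 TPM. Hjv had no count in any library, and Tfr2, Hamp and Tmprss6 stayed below the filter.

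In heme synthesis and breakdown, 3 of 13 tested genes were higher and 1 lower (median 0.08), against 15.6% and 12.7% of all genes. The enzymes Cpox (0.24, edgeR's adjusted p = 0.00826) and Fech (0.22, adjusted p = 0.0397) and the heme-sensing repressor Bach1 (0.34, adjusted p = 0.0384) were higher, Ppox was lower (−0.28, adjusted p = 0.0173), and the abundant Nfe2l2 and Alas1 did not pass (0.19 and 0.12). In iron-sulfur cluster assembly, 1 of 20 tested genes was higher and 2 were lower (median 0.0052), against the same shares of all genes. Among them were the assembly protein Isca1 (0.22, edgeR's adjusted p = 0.0303) and the cytosolic factor Nubp2 (−0.36, adjusted p = 0.0115), while Hspa9 and Bola3 did not pass (−0.18 and 0.05).

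Of 18 tested genes of the HIF axis and its responsive genes, 4 were higher and 0 lower (median 0.09; 0 lower also at an unadjusted p below 0.05, with DESeq2 and with limma-voom). Among all genes tested, 15.6% were higher and 12.7% lower, and the list was not tested against these shares. Cited2, a HIF-induced inhibitor of HIF coactivators, rose from 16.2 to 25.4 TPM (log2 fold change 0.72, edgeR's adjusted p = 0.00114), the mitophagy receptor Bnip3 from 3.43 to 7.86 TPM (1.27, adjusted p = 0.00164) and the carbonic anhydrase Car9 from 54.3 to 60.6 TPM (0.29, adjusted p = 0.00700). Egln3, a prolyl hydroxylase that marks HIF for degradation, rose from 2.99 to 8.42 TPM (1.57, adjusted p = 0.00837). Hif1a, the paralogue of Epas1, was at 21.5 and 21.4 TPM (0.11, adjusted p = 0.295), and Pdk1 and Ndrg1 did not pass (0.01 and 0.58).

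**Figure D5:**
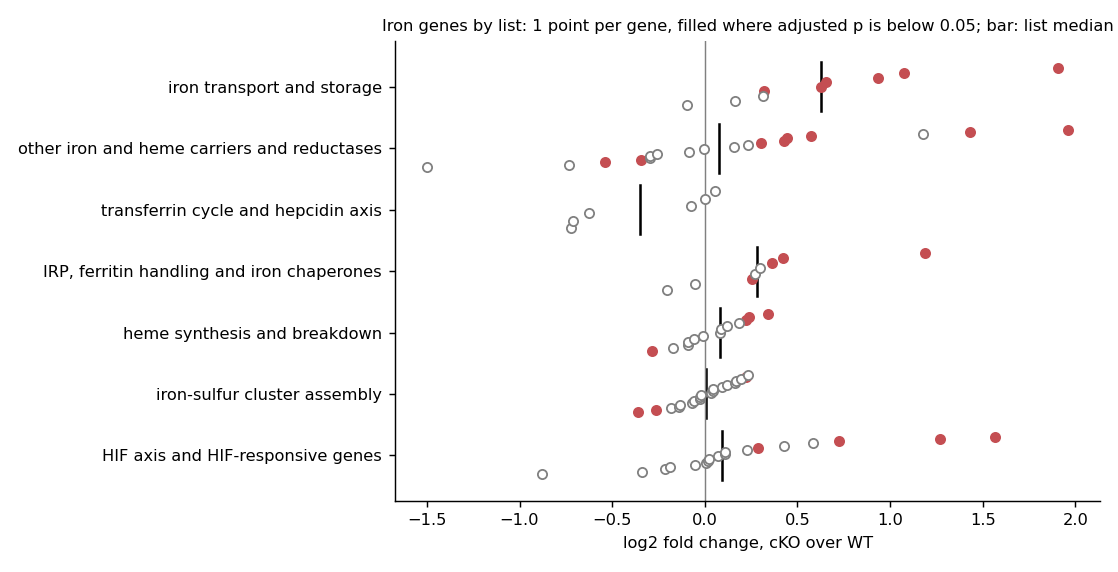
Log2 fold change, cKO over WT (x axis), of each tested gene of the 9 iron genes and of 6 further lists (y axis), filled where edgeR's adjusted p is below 0.05, with the list median as a bar. The median is 0.62 for iron transport and storage and between −0.35 and 0.28 for the other lists.

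Likeness between genes was measured as Pearson's r of the log2 CPM deviations of the 10 libraries from the mean of their own genotype, as a description over libraries that share depth and composition. The 2 genes most like each changed member were Lgals9 and Duox2 for Slc11a2 (r = 0.96 and 0.94), Fam189a2 and Gadd45g for Slc40a1 (0.93 and 0.93), Cdhr2 and Slco2a1 for Heph (0.98 and 0.97), Ifit3 and Ifit1bl1 for Fth1 (0.97 and 0.96), Sdcbp2 and Prap1 for Ftl1 (0.98 and 0.97), and Cbx6 and Mitf for Epas1 (0.93 and 0.92). Each value was picked as the highest of 14719 genes over only 10 libraries. The highest values of the members not called were similar, at 0.98 (Tfrc), 0.96 (Cybrd1) and 0.93 (Hmox1). Lgals9, Duox2, Fam189a2, Gadd45g, Cbx6 and Mitf did not themselves pass the threshold for genotype. Among the 9 genes, Fth1 and Ftl1 (r = 0.88), Heph and Fth1 (0.83), Epas1 and Hmox1 (0.81) and Slc11a2 and Slc40a1 (0.76) varied most alike from animal to animal, and Tfrc and Ftl1 varied most in opposite directions (−0.73).

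Markers of other cell types were read as whole lists beside these values. Of 8 erythroid markers, 4 could be tested, 0 passed in edgeR (0 higher and 2 lower at an unadjusted p below 0.05, 0 and 2 with DESeq2, 0 with limma-voom), and their sum was 6.35 to 29.1 TPM in WT and 1.94 to 13.1 TPM in cKO libraries. Of 10 lymphocyte and plasma cell markers, Jchain and Igha were lower in cKO libraries (−1.95 and −1.91) and 0 were higher (0 at an unadjusted p below 0.05, with DESeq2 and with limma-voom). Fibroblast and muscle markers summed to 4.83 to 43.0 TPM in WT and 4.01 to 51.8 TPM in cKO libraries, with 1 of 10 lower. Of 8 Paneth, goblet, enteroendocrine and tuft cell markers, 4 (Chga, Chgb, Dclk1 and Trpm5) were higher and 2, Lyz1 and Mmp7, lower. The higher and lower counts were 4 and 2 with DESeq2, 3 and 2 with limma-voom, and 0 and 2 by limma on log2(TPM + 1). Of 6 tested markers of the proximal small intestine 3 were higher, while Gata4, its defining transcription factor, was at 103 and 100.1 TPM. Of 7 ileum markers 6 could be tested, 2 were higher (Muc3, 2.37, and Ccl25, 0.57), and the sum of the list did not overlap between the groups, at 384 to 654 TPM in WT and 765 to 1048 TPM in cKO libraries. Fabp6 and Slc10a2, the bile acid carriers of the ileum, stayed at or below 1.42 TPM in every library. The part of these differences in the values of the iron genes was not tested.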

How the data were processed

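RNA-seq libraries of jejunal crypts from 5 WT and 5 cKO mice were analysed. The authors ran the nf-core/rnaseq pipeline with STAR and RSEM against GRCm38 (Ensembl 95) and deposited, for each library, expected counts, TPM, FPKM and transcript lengths of 54838 genes, without normalization between libraries. RSEM divides reads among similar transcripts, and the strand setting is not given in the sources used here. The deposited FPKM values were not used.

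Expected counts were rounded and tested in R 4.3.3 with edgeR 4.0.16 (filterByExpr, minimum count 10, minimum total 15, TMM, robust quasi-likelihood test, Benjamini-Hochberg adjustment, threshold 0.05), which left 14719 genes. The deposited TPM values were compared on log2(TPM + 1) by exact permutation of the genotype labels, two-sided, and this scale understates differences of low genes. Copies of ferritin genes were sought with BLAST 2.17.0 (at least 95% identity over 80% of the copy). Of 54838 gene IDs, 54723 had a symbol, and the others held 0.0193% of the counts. The members and lists were chosen with earlier results of these data known.

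Named genes were Arid3a, the 9 members, up to 3 called genes per direction and 2 abundant others from each list, and the 2 genes most like each called member. Some genes that meet this rule are not reported here. Alternatives were DESeq2 1.42.0, limma 3.58.1, sva 3.50.0, other scalings and filters, the effective length, a replicate block and leaving out animals. The scripts were tested on simulated data. The labels number the animals but name no shared litter or day, and same-numbered libraries did not deviate together. p-values measure the spread between these animals.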

Additional observations from a re-analysis of the deposited data

How the results depend on the processing

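The log2 fold changes of Slc40a1, Heph, Fth1 and Epas1 kept their direction and passed the threshold in all 24 alternatives, with ranges of 1.59 to 2.11, 0.91 to 1.16, 0.76 to 1.02 and 0.50 to 0.84. Leaving out each animal in turn gave 5 to 6 higher iron genes and 0 lower. The cause of the changes below was not tested. The count of higher iron genes was 5 with library size only and with the replicate block. It was 4 in the 3 settings on TPM, with 1 surrogate variable and without WT replicates 3 and 4. Slc11a2 fell short on TPM (0.37 with a pseudocount of 1, 0.38 with 0.1, 0.37 with a mean TPM of at least 1), with 1 surrogate variable (0.56) and without WT replicates 3 and 4 (0.64), and gave 0.52 to 0.75 without 1 animal. Ftl1 fell short with library size only (0.19), on TPM (0.23 under each of the 3 settings), with the replicate block (0.33), with 1 surrogate variable (0.19) and without WT replicates 3 and 4 (0.19), and gave 0.26 to 0.39 without 1 animal, where 4 of 10 fits kept the call. The sign turned for Cybrd1 without cKO replicate 4 (−0.0158; range −0.0158 to 0.49 without 1 animal, 0.62 without WT replicates 3 and 4, 0.87 with 1 surrogate variable), for Hmox1 without WT replicate 2 (−0.0353) or cKO replicate 4 (−0.0246; range −0.0353 to 0.61, 0.62 with 1 surrogate variable), and for Tfrc without cKO replicate 4 (0.0003; range −0.17 to 0.0003) and without WT replicates 3 and 4 (0.0598). No fit with a mean TPM of at least 1 was made for Hmox1, which lies below it.

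Over all genes, higher calls numbered 1420, 1405 and 1400 in the 3 TPM settings, 1021 with 1 surrogate variable and 1472 without WT replicates 3 and 4, and lower calls 4030 with library size only, 1188 with the replicate block, 275 with 1 surrogate variable and 670 without WT replicates 3 and 4. Without 1 animal, 1760 to 2572 genes were higher and 1131 to 2112 lower, with 1131 without WT replicate 4. For the further iron genes, higher calls were 10 with library size only, 8, 8 and 10 in the TPM settings and 10 with 1 surrogate variable (13 to 21 without 1 animal). Lower calls were 19 with library size only, 9 with DESeq2, 3 without a filter, 13, 13 and 12 in the TPM settings, 1 with the replicate block, 1 with 1 surrogate variable and 2 without WT replicates 3 and 4, and 3 to 8 without 1 animal, with 8 without WT replicate 2 and 3 without WT replicate 4. Library size only moved the median of all genes from −0.03 to −0.16 and log2(TPM + 1) to −0.10. No pairing by replicate number was seen, though so few animals could miss a weak one. Correlations of same-numbered libraries ran from −0.21 to 0.09, and 0 of 10 libraries correlated best with their own number. Hmox1 and Cybrd1 are the lowest of the 9 genes, and their intervals include differences of 2.05-fold and 2.04-fold.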
